A study of Mus musculus with 18 samples.

Results

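The zinc finger protein genes *Zfp600* to *Zfp999* were examined in nuclear and whole cell samples of mouse Neuro2A cells. A locus was taken as a member when a symbol listed for it was Zfp followed by a number from 600 to 999, with or without a trailing letter, and symbols ending in -ps or os were dropped. This gave 199 of the 52179 loci with a gene symbol, which carried 184 member symbols. The number in the symbol is the only property the rule used. The range of numbers, however, was chosen with earlier results of these data known.

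Neuro2A (N2A) is a neuroblastoma cell line of wild-type (WT) genotype. The sequenced samples formed 6 groups of 3. Nuclei or whole cells were lysed after no transfection (control), after transfection of a scrambled mimic (Scr) or after transfection of a *miR-92b* mimic, each mimic carrying biotin and used at 25 nM. In such a pulldown streptavidin beads retain the biotin-tagged mimic with the RNA attached to it. A level in the mimic groups is therefore that of RNA in the pulldown, which may differ from its abundance in the compartment. Whole cell lysates also contain the nuclei, so the comparison is not nucleus against cytoplasm. Libraries were then prepared after an oligo-dT selection, so that polyadenylated RNA was sequenced. The sources used here do not say whether lysates of untransfected cells went through the beads. Every group is the same cell line, and the labels do not say whether the 3 samples of a group came from separate cultures, so p-values measure the spread between these samples, which may be technical.

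Most proteins of this family bind DNA through an array of C2H2 zinc fingers, in which a pair of cysteines and a pair of histidines hold a zinc ion. Many carry in addition a KRAB domain (Krüppel-associated box). The KRAB domain recruits Trim28, which brings in the histone H3 lysine 9 methyltransferase Setdb1 and proteins of the heterochromatin protein 1 family, and the DNA bound by the fingers, often a transposable element, is silenced. Genes of the family lie in clusters that grew by duplication, so that neighbouring members can be close copies and can share reads.

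The bait of the assay was the mature *miR-92b-3p*, shown because it defines the *miR-92b* groups. Its sequence in RefSeq (GRCm38.p6, chr3:89227126-89227147, minus strand) is printed with the seed, bases 2 to 8, in capitals.
miR-92b-3p: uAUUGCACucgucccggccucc
Member loci with a match to this seed were few. The 7 bases that pair with the seed, GTGCAAT, were searched on the sense strand of the longest annotated 3′ UTR of each gene in GENCODE M21 (GRCm38). They were found in 5 of 121 tested members with 1 symbol and an annotated 3′ UTR (4.13%), against 7.90% of 10494 tested loci of that kind. The median 3′ UTR length was 1434 bases for the 5 members and 2586 bases for all loci with a match, and 1304.5 bases for the members and 1141 bases for all loci without one. The 5 members were *Zfp672*, *Zfp677*, *Zfp780b*, *Zfp784* and *Zfp867*. Windows of 30 bases in the 3′ UTR are printed for *Zfp672*, where an A follows the 7 bases to make an 8-base match, and for the member with 3 copies, *Zfp677*, with the match in capitals. They lie at chr11:58327965-58327994 on the minus strand and at chr17:21398584-21398613, chr17:21398668-21398697 and chr17:21398752-21398781 on the plus strand.
Zfp672: cacacaccttcagaaGTGCAATataaaaag
Zfp677 copy 1: atagaaattatacaaGTGCAATgactgtga
Zfp677 copy 2: atagaaattatacaaGTGCAATgactatga
Zfp677 copy 3: atagaaattatacaaGTGCAATgactgtga

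Of the 199 loci, 14 had no read in any sample, 185 had at least 1 read and 107 had a read in all 18 samples. The 149 loci whose normalized counts averaged 10 or more across all samples were tested. The other 36 loci with reads fell under that mean and were not tested. A normalized count is the read number of a locus after division by the size factor of the sample, and the reads on loci with a symbol numbered from 3752991 to 22920038 per sample. Of the tested members, 124 carried 1 symbol and 25 joined several, so that a value of a joined locus cannot be given to 1 of its genes. The tested members had a median mean normalized count of 117, close to the 116 of all 15579 tested loci. Some libraries stood apart. Nuclear Scr samples 2 and 3 had no reads on 18 and 13 of the tested members, and whole cell *miR-92b* sample 3 on 13. Nuclear control sample 3 missed 6, the remaining nuclear samples at most 1 and the other whole cell samples at most 10. Nuclear control sample 3 and nuclear Scr samples 2 and 3 had reads on 15732, 14928 and 15092 loci with a symbol. The remaining nuclear samples had reads on at least 19786. Nuclear control sample 3 gave the highest nuclear value at 43 members. Whole cell *miR-92b* sample 3 gave the lowest of the 9 whole cell values at 32 of the 84 members with a mean of at least 100.

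The fractions were first checked against other genes. Of 4 tested long RNAs known to stay in the nucleus, *Malat1*, *Neat1* and *Kcnq1ot1* were called higher in nuclear samples and *Meg3* was not called, and all 7 cytoplasmic mRNAs (*Gapdh*, *Actb*, *Eef2*, *Rplp0*, *Rpl8*, *Tubb5* and *Eno1*) were called lower, with a median log2 difference of −2.75. Of the neuroblastoma and sympathetic marker genes, *Hand2*, *Isl1* and *Th* had mean normalized counts of 1078, 741 and 150.1 over the 18 samples, while *Nefl* was at 0 in every sample. Of 12 marker genes of glia, blood, vessel, connective tissue and epithelium, none had a mean of at least 100, and their summed normalized count lay between 130 and 225 in nuclear and between 129 and 326 in whole cell samples.

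Members took a larger share of the reads in nuclear samples than in whole cell samples. The share was 0.896%, 0.960% and 0.948% in nuclear control, 0.889%, 0.862% and 0.911% in nuclear Scr, and 0.881%, 0.932% and 0.936% in nuclear *miR-92b* samples. In whole cell samples it was 0.646%, 0.657% and 0.649% in control, 0.742%, 0.718% and 0.703% in Scr, and 0.757%, 0.699% and 0.472% in *miR-92b* samples. No nuclear sample overlapped a whole cell sample. The mean was 0.913% ± 0.033 (SD, n = 9) in nuclear and 0.671% ± 0.085 (SD, n = 9) in whole cell samples, a ratio of 1.36. Whole cell *miR-92b* sample 3 was the lowest of all, and without it the ratio was 1.31. The 5 members with the most reads held 47.4% of the gap between the means of the 9 nuclear and the 9 whole cell samples, taking 0.316% of nuclear and 0.202% of whole cell reads on average. The other 194 loci took 0.536% to 0.620% of nuclear reads (mean 0.596%) and 0.360% to 0.528% of whole cell reads (mean 0.469%), which still did not overlap, and the ratio of their means was 1.27. These are shares of each library, so a rise of the members and a fall of other RNA cannot be told apart, nor can fewer cells and less RNA per cell.

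**Figure D1:**
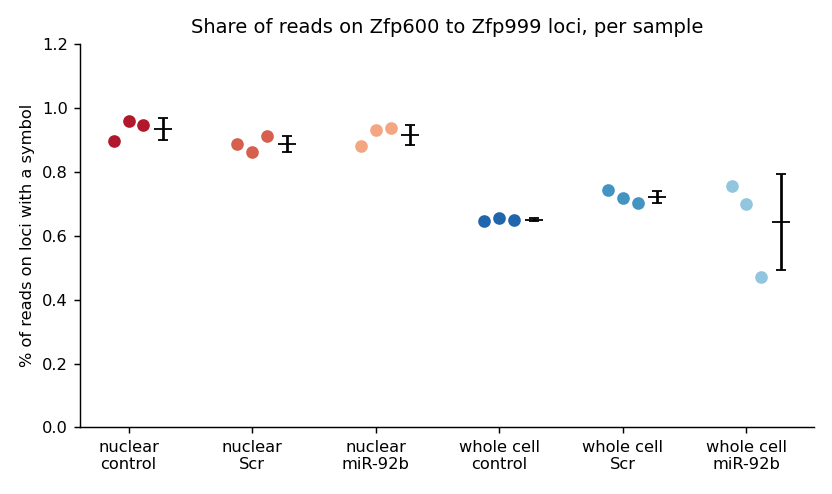
Share of the reads on loci with a symbol that lay on *Zfp600* to *Zfp999* loci, in percent, for each of the 18 samples. Points are samples and the black mark is the mean with its SD (n = 3). The 9 nuclear samples sit between 0.862% and 0.960% and the 9 whole cell samples between 0.472% and 0.757%.

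Taken over the 3 treatments together, 36 members were called higher in nuclear samples, 3 were called lower and 110 were not called. The test was limma on log2(normalized count + 1) in a model of the 6 group means, with Benjamini-Hochberg adjustment over all 15579 tested loci and a threshold of 0.05. Of the members, 24.2% were called higher and 2.01% lower, against 15.3% higher and 15.8% lower of all tested loci (31.0% in either direction, and 26.2% of members). The members' median log2 difference, nuclear minus whole cell, was 0.36 and 74.5% of them lay above 0. The median of all tested loci was 0.14, with 56.6% above 0, so the members' median lay 0.22 above that of all loci. Leaving out each sample in turn, 34 of the 39 calls were made in all 18 fits, 31 of them higher and 3 lower.

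In the mean of the treatments the other numbered zinc finger genes, *Zfp1* to *Zfp599*, had shares and a median between those of the members and of all loci. Of their 180 tested loci, 31 were called higher (17.2%) and 8 lower (4.44%), with a median of 0.27. The difference between these genes and the members was not tested, and the range that divides them was chosen with earlier results known.

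**Figure D2:**
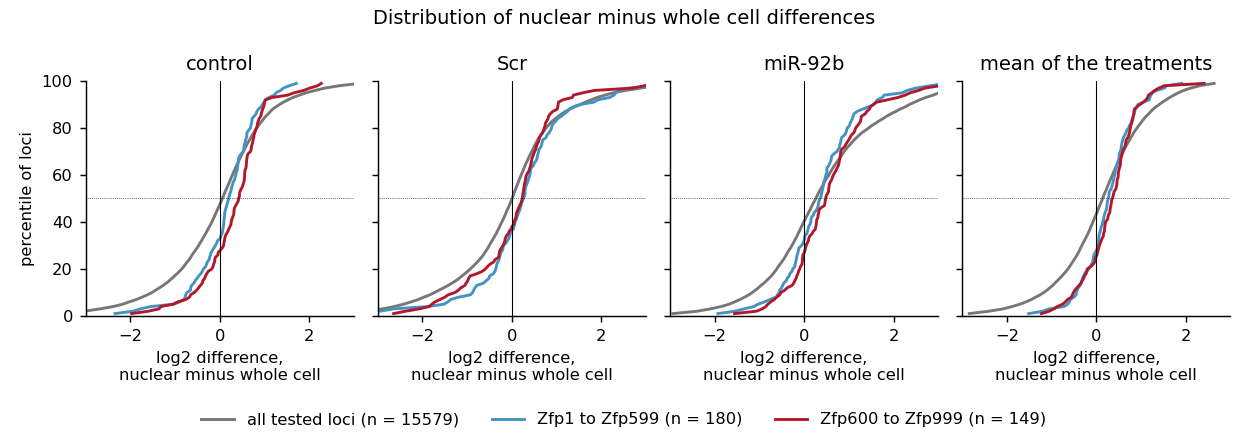
Percentile curves of the log2 difference, nuclear minus whole cell, in each treatment and in the mean of the treatments, for all tested loci (n = 15579), *Zfp1* to *Zfp599* (n = 180) and *Zfp600* to *Zfp999* (n = 149). Where a curve crosses the dotted line it is at its median: in the mean of the treatments 0.14 for all loci, 0.27 for *Zfp1* to *Zfp599* and 0.36 for *Zfp600* to *Zfp999*.

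The calls lay mostly on members with many reads. Among the 50 members with the highest mean normalized counts (231 to 4649), 31 were called higher and 3 lower, that is 62.0% and 6.0%. Of all 5239 tested loci with a mean in the same range, 25.8% were called higher and 26.6% lower. Among the 49 members in the middle (63.9 to 217), 3 were called higher and none lower, against 12.4% and 17.3% of all loci in that range. Among the 50 members with the lowest means (10.8 to 63.6), 2 were called higher and none lower, against 7.16% and 4.55%. The median difference of the members was 0.51, 0.20 and 0.30 from the highest to the lowest range, and that of all loci in the same ranges was 0.02, −0.01 and 0.56. The members' median thus lay below that of loci of like level in the lowest range and above it in the other ranges.

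**Figure D3:**
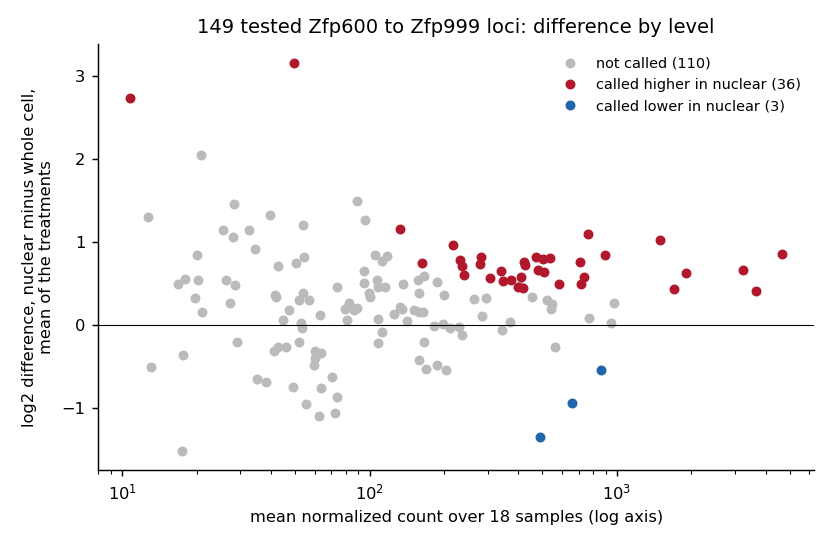
Log2 difference, nuclear minus whole cell, in the mean of the treatments against the mean normalized count over 18 samples (log axis) for the 149 tested members. Red points are the 36 called higher in nuclear samples, blue points the 3 called lower and grey points the 110 not called. Among the 50 points with the highest counts 31 are red, and the red points there lie between 0.41 and 1.10.

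By length-corrected level (FPKM, fragments scaled to transcript length and library size), the 6 highest tested members were *Zfp638*, *Zfp655*, *Zfp644*, *Zfp948* with *Zfp983*, *Zfp970* and *Zfp664*. Their mean FPKM over the samples was 93.5, 62.5, 32.9, 31.3, 30.9 and 30.1. The first 5 were called higher in nuclear samples and *Zfp664* lower.

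*Zfp638*, also known as NP220, is a nuclear protein that silences unintegrated retroviral DNA together with the HUSH complex (gene at 83867109 to 83989550 on the plus strand of chromosome 6, GRCm38, as annotated in GENCODE M21). Its normalized counts were 3722, 3773 and 4389 in nuclear control, 3789, 4349 and 4003 in nuclear Scr and 4186, 3750 and 3749 in nuclear *miR-92b* samples. In whole cell samples they were 2333, 2578 and 2274 in control, 3154, 2772 and 2663 in Scr and 2698, 2632 and 1662 in *miR-92b*. All nuclear samples lay above all whole cell samples. The log2 difference in the mean of the treatments was 0.67 ± 0.10 (SE, limma adjusted p = 2.32e-05), a 1.59-fold higher level. In the deposited FPKM the gap was smaller, with medians of 94.5 in nuclear and 80.7 in whole cell samples, and it was not called on that scale (log2 difference 0.30, limma adjusted p = 0.279).

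*Zfp655*, a Krüppel-like protein named for its binding to Vav, was higher by 0.41 ± 0.11 on the log2 scale (limma adjusted p = 0.00545). Its counts had a median of 4085 in nuclear samples (3475 to 4676) and of 3277 in whole cell samples (2029 to 3789), and the ranges overlapped.

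*Zfp644*, a partner of the histone H3 lysine 9 methyltransferases G9a and GLP, was measured on a locus that also joins the non-coding *Gm28039* and *Gm28050*. The counts had a median of 2314 in nuclear (1724 to 2940) and of 1491 in whole cell samples (948 to 1793), a log2 difference of 0.63 ± 0.11 (limma adjusted p = 0.000149). Only the lowest nuclear sample, nuclear Scr sample 3, reached into the whole cell range.

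*Zfp970*, on chromosome 2, had a median of 273 in nuclear and 186 in whole cell samples. Its call was the least stable of the 6: the log2 difference of 0.60 ± 0.21 (limma adjusted p = 0.0312) was not called in 6 of the 18 fits that left out a sample.

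At 7 members every nuclear sample lay above every whole cell sample, which is 4.70% of the members against 2.91% of all tested loci. They were *Zfp825*, the joined *Zfp948* and *Zfp983*, *Zfp942*, the joined *Gm4960* and *Zfp804b*, *Zfp638*, *Zfp800* and *Zfp646*. At 2 members, *Zfp706* and *Zfp653*, every nuclear sample lay below, that is 1.34% against 4.40% of all tested loci.

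*Zfp825*, a KRAB gene at 74480054 to 74493992 on the minus strand of chromosome 13, was called higher in nuclear samples in each of the 3 treatments. The values given are those of its locus with more reads. Counts were 1639, 1999 and 2351 in nuclear control, 1847, 2034 and 2454 in nuclear Scr and 1930, 1831 and 1889 in nuclear *miR-92b* samples. They were 1077, 967 and 1138 in whole cell control, 948, 1014 and 1129 in whole cell Scr and 1162, 1072 and 502 in whole cell *miR-92b* samples. The highest whole cell sample was still under the lowest nuclear sample. The level was 2.03-fold higher in nuclear samples (log2 difference 1.02 ± 0.13, limma adjusted p = 3.10e-06). A further locus of the same symbol gave 0.76 with a limma adjusted p of 0.00111, and reads could be split between them.

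*Zfp646*, a protein with 30 fingers by the pattern used here, ranged from 817 to 1178 in nuclear samples (median 1043) and from 192 to 769 in whole cell samples (median 526). The log2 difference was 1.10 ± 0.19 (limma adjusted p = 8.92e-05). The lowest whole cell value was that of *miR-92b* sample 3, and without that sample the difference was 0.93.

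The joined *Zfp948* and *Zfp983*, neighbouring KRAB genes on chromosome 17, ranged from 919 to 1328 in nuclear samples and from 329 to 827 in whole cell samples. The log2 difference was 0.85 ± 0.15 (limma adjusted p = 0.000112).

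The highest counts of any member, with a mean of 4649, came from the locus that joins *Zfp804b* and the processed pseudogene *Gm4960*. *Zfp804b* spans 576 kb on chromosome 5, and *Gm4960* lies outside it, so that the counts may belong to either. The locus ranged from 4685 to 6744 in nuclear and from 1570 to 3922 in whole cell samples (log2 difference 0.86 ± 0.13, limma adjusted p = 3.16e-05).

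Some of the called members with fewer reads had larger fitted differences with larger errors. *Zfp773* was read in every nuclear sample, with counts from 48.9 to 104, and was at 0 in whole cell Scr sample 1 and whole cell *miR-92b* samples 2 and 3, with a whole cell maximum of 56.4. Its log2 difference of 3.16 ± 0.82 (limma adjusted p = 0.00500) depends on the pseudocount, being 1.98 with a pseudocount of 8, and it was not called by edgeR (adjusted p = 0.0824).

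The locus XLOC_041739, which joins *Zfp729a* and *Zfp738*, had a mean of 10.8 and was at 0 in all whole cell Scr and *miR-92b* samples, while its counts in whole cell control were 0, 21.6 and 14.8. Its fitted log2 difference of 2.74 (limma adjusted p = 0.0178) therefore rests on few reads and on the pseudocount, and the larger locus of the same pair gave 0.49 (limma adjusted p = 0.00697).

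*Zfp950* was called at 1.16 ± 0.33 (limma adjusted p = 0.0102), with counts from 117 to 274 in nuclear and from 29.4 to 216 in whole cell samples. *Zfp771* was called at 0.96 ± 0.25 (limma adjusted p = 0.00530), with counts from 208 to 314 in nuclear and from 38.2 to 218 in whole cell samples. On the FPKM scale neither was called, and for *Zfp771* the difference on that scale was 0.09.

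**Figure D4:**
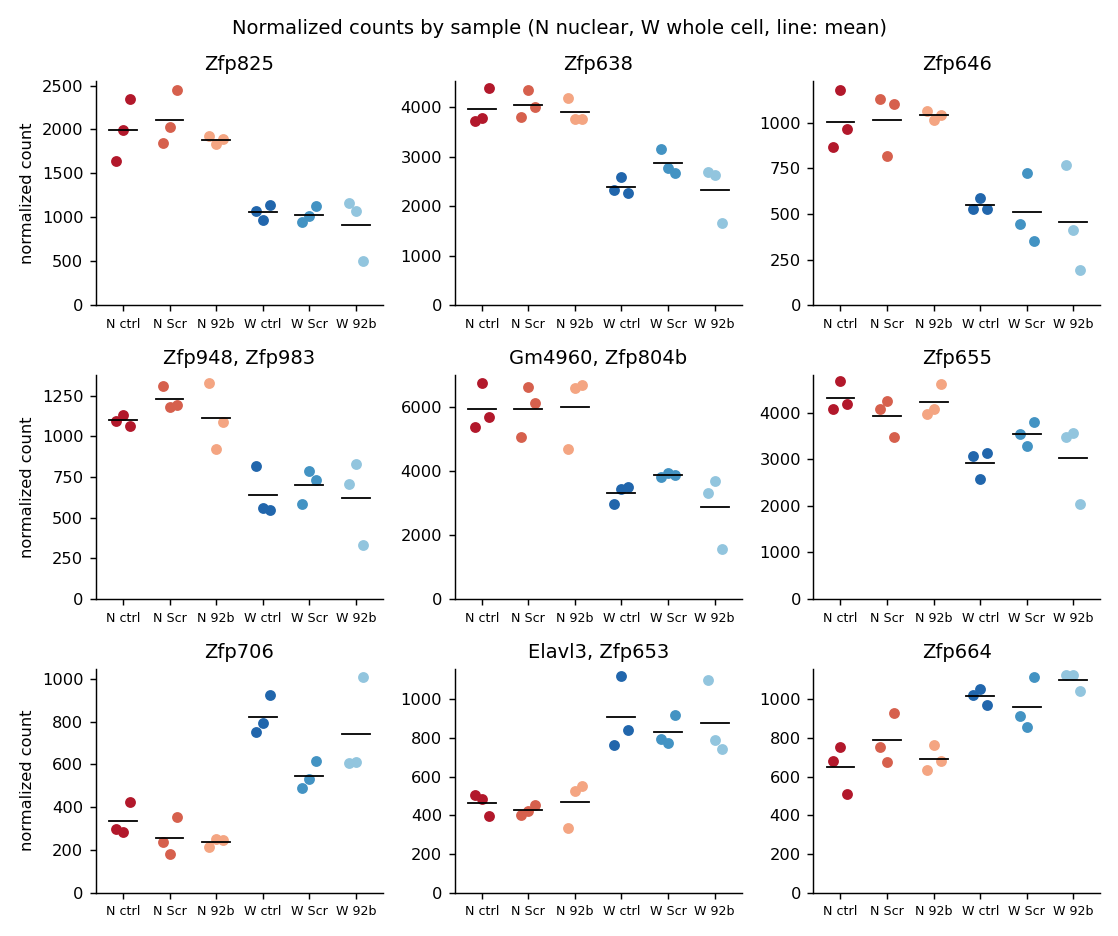
Normalized counts of 9 member loci in each sample, nuclear groups in red shades and whole cell groups in blue shades, with the group mean as a line and axes from 0. In the upper rows nuclear samples are higher, with no overlap for *Zfp825*, *Zfp638*, *Zfp646*, *Zfp948* with *Zfp983* and *Gm4960* with *Zfp804b*. In the lowest row *Zfp706*, *Zfp653* with *Elavl3* and *Zfp664* are lower in nuclear samples.

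The 3 members called lower in nuclear samples had no KRAB pattern. *Zfp706*, a small protein with 1 finger that takes part in the exit of embryonic stem cells from self-renewal, had counts of 299, 282 and 424 in nuclear control, 236, 181 and 352 in nuclear Scr and 213, 252 and 248 in nuclear *miR-92b* samples. Whole cell samples had 753, 794 and 922 in control, 487, 531 and 615 in Scr and 607, 611 and 1006 in *miR-92b*. The ranges did not overlap. The log2 difference was −1.35 ± 0.15 (limma adjusted p = 3.21e-07), and the locus was called lower in each of the 3 treatments.

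*Zfp653*, a repressor of nuclear receptor activity, was measured on a locus that also joins *Elavl3*, which encodes a neuronal RNA-binding protein and lies next to it on chromosome 9. The locus ranged from 333 to 552 in nuclear and from 744 to 1119 in whole cell samples (log2 difference −0.94 ± 0.13, limma adjusted p = 5.74e-06) and was also called lower in each treatment. *Zfp664* ranged from 511 to 929 in nuclear and from 856 to 1127 in whole cell samples (log2 difference −0.54 ± 0.11, limma adjusted p = 0.000493), and it was called in control and *miR-92b* samples.

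Members with known roles that were listed by name gave mixed values. Beside *Zfp638* and *Zfp644*, which were called higher, 5 were tested and not called. *Zfp703*, a co-repressor of the NET family, had a log2 difference of −0.76 ± 0.46 (limma adjusted p = 0.217). *Zfp746*, also known as PARIS, a repressor of PGC-1α and substrate of parkin, had 0.33 ± 0.17 (limma adjusted p = 0.147). *Zfp809*, which binds the proline primer-binding site of retroviruses and recruits Trim28, had −0.26 ± 0.50 (limma adjusted p = 0.717). Its counts ran from 8.83 to 75.8 in nuclear and from 17.1 to 107 in whole cell samples, and with this SE a difference as large as that of *Zfp638* was not detectable.

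*Zfp827*, which recruits the NuRD complex to telomeres, had 0.46 ± 0.33 on a locus that joins a further gene (limma adjusted p = 0.291). *Zfp830*, a factor in splicing and genome stability, had −0.03 ± 0.44 (limma adjusted p = 0.960), a sign that changed with the scaling of the samples. *Zfp711* and *Zfp804a*, whose human counterparts are linked to intellectual disability and to psychiatric disorders, had a read in 1 sample each and were not tested.

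The members were next divided by what their coding sequences hold. A KRAB A-box pattern of 13 residues was searched in the translated coding transcripts of GENCODE M21, and was found in 119 of the 180 member symbols with a coding transcript and in 297 of all 21745 protein-coding genes. At least 1 C2H2 finger was found in 170 of the 180, with a median of 11 and a maximum of 33 fingers. Of 97 tested loci with the KRAB pattern, 23 were called higher, none lower and 74 were not called, with a median difference of 0.44. Of 50 tested loci without it, 13 were called higher, 3 lower and 34 were not called, with a median of 0.20. The shares called higher were thus close, at 23.7% with and 26.0% without the pattern, and those called lower were 0% and 6.0%, beside 15.3% and 15.8% of all tested loci. Loci without the pattern had more reads, with a median mean count of 248 against 105. A KRAB domain that departs from the 13 residues of the pattern would be missed, so loci without the pattern are not shown to lack one.

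By number of fingers, 4 of 22 loci with at most 5 fingers were called higher and 2 lower, 16 of 73 with 6 to 12 fingers were called higher and 1 lower, and 16 of 52 with at least 13 fingers were called higher and none lower. The shares called higher were 18.2%, 21.9% and 30.8%, beside 15.3% of all tested loci, and the medians were 0.24, 0.39 and 0.48. These are counts and medians without a test. The classes were not matched for read level, although calls lay mostly on members with many reads.

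**Figure D5:**
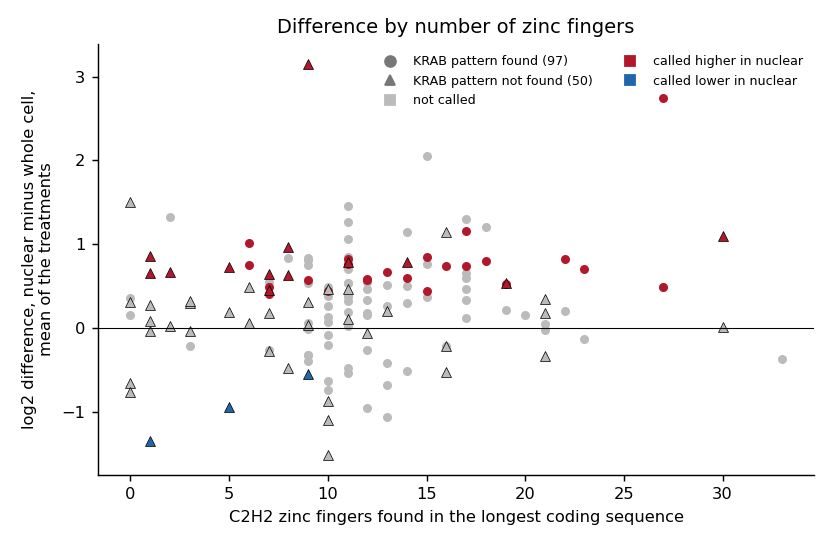
Log2 difference, nuclear minus whole cell, in the mean of the treatments against the number of C2H2 fingers in the longest coding sequence. Circles are the 97 loci with the KRAB pattern and triangles the 50 without it, red called higher and blue called lower in nuclear samples. The 3 blue points are triangles with at most 9 fingers.

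Tested members lay on chromosome 7 most often, with 34 loci, followed by chromosome 17 with 22 and chromosome 13 with 17. On chromosome 7, 8 loci were called higher, on chromosome 17, 5, and on chromosome 13, 6, and none on these chromosomes were called lower. These are 23.5%, 22.7% and 35.3% of the members there, beside 24.2% of all tested members and 15.3% of all tested loci. The medians there were 0.29, 0.48 and 0.49. On chromosome 2 all 9 tested loci had a difference above 0, from 0.36 to 1.50, and 4 were called. On chromosome 4 none of 8 was called in either direction. No difference between chromosomes was tested. Neighbouring members in a cluster can share reads, so loci of 1 chromosome are not independent of each other.

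Each treatment was also compared by itself. In control samples 13 members were called higher in nuclear samples and 3 lower (8.72% and 2.01%), against 2.94% and 6.91% of all tested loci (9.85% in either direction). When each sample was set to the same median, 19 were called higher and 2 lower, and the calls over all loci moved from 458 higher and 1077 lower to 773 higher and 891 lower. The members' median was 0.42 and that of all loci 0.06. The count changed with single libraries: 4 were called without nuclear control sample 3 and 4 without whole cell control sample 2. These counts were not compared with all loci. The largest called difference was that of *Zfp950*, at 1.87 ± 0.58 (limma adjusted p = 0.0393).

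In Scr samples 1 member was called higher and 3 lower (0.671% and 2.01%), against 1.46% and 3.70% of all tested loci (5.17% in either direction). The member called higher was *Zfp825*, at 1.03 ± 0.23 (limma adjusted p = 0.0106). Those called lower were *Zfp706*, *Zfp653* and *Zfp874b*, the last of which was named after its values were seen. *Zfp874b* was at 0 in nuclear Scr samples 2 and 3, the libraries that missed the most members, and at 39.6 in nuclear Scr sample 1, while the other nuclear samples ran from 54.6 to 185 and whole cell Scr samples from 43.0 to 85.1. Without nuclear Scr samples 2 and 3 no member was called in Scr, and 182 of all tested loci were, in a fit that takes the lone nuclear Scr sample to vary like the other groups. The members' median was 0.23 and that of all loci 0.01. *Zfp1* to *Zfp599* lay above the members here, with a median of 0.26, 5 loci called higher (2.78%) and none lower.

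In *miR-92b* samples 16 members were called higher and 3 lower (10.7% and 2.01%), against 6.66% and 6.63% of all tested loci (13.3% in either direction). The medians were 0.48 and 0.26. Without whole cell *miR-92b* sample 3, which had the lowest value at many members, 9 were called higher and 3 lower, a count not compared with all loci. *Zfp646* was called here at 1.40 ± 0.32 (limma adjusted p = 0.00550), as was *Zfp608* at 1.28. Over the 3 treatments 27 members were called in at least 1 of them, and *Zfp825*, *Zfp706* and *Zfp653* in all 3. These are 18.1% and 2.01% of the members, near the 17.7% and 2.93% of all tested loci.

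The difference between nuclear and whole cell levels was then compared between treatments. No member was called (0% of all tested loci), with 8 members at an unadjusted p under 0.05, which is 5.37% of the members against 4.46% of all tested loci. edgeR and DESeq2 also called no member. The lowest limma adjusted p of a member was 0.962. A difference between treatments in how members were distributed was thus not detected, which does not show that the treatments were alike. Without nuclear Scr sample 1, *Zfp874b* was called (limma adjusted p = 0.0327), which leaves the 2 nuclear Scr samples in which it was at 0.

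*miR-92b* was compared with Scr within each compartment, the contrast that the pulldown was designed for. In nuclear samples no member was called (0% of all tested loci), and 8 had an unadjusted p under 0.05 (5.37% of members, 4.41% of all loci). In whole cell samples no member was called (0.00642% of all tested loci, that is 1 locus), and 16 had an unadjusted p under 0.05 (10.7% of members, 9.72% of all loci), with a lowest limma adjusted p of 0.337. edgeR and DESeq2 called no member in either compartment. The study reported differentially expressed genes for nuclear and for whole cell samples in this contrast with Cuffdiff, which was not run here. The absence of calls does not show that the members were alike in *miR-92b* and Scr samples. The members' median, *miR-92b* minus Scr, was 0.14 in nuclear samples and −0.10 in whole cell samples, beside 0.11 and −0.01 for all loci. Without nuclear Scr sample 1, *Zfp874b* was called in nuclear samples.

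Members on joined loci, such as *Zfp827*, whose 3′ UTR also holds a match, were not counted. The 5 members with 1 symbol whose 3′ UTR holds the seed match were not called for *miR-92b* against Scr in either compartment. Their median, *miR-92b* minus Scr, was 0.25 in nuclear samples and −0.43 in whole cell samples, beside 0.18 and −0.07 for the 116 members without a match, 0.03 and −0.01 for all 829 loci with a match, and 0.09 and 0.05 for those without. In whole cell samples 2 of the 5 had an unadjusted p under 0.05, in opposite directions: *Zfp784* at 3.37 ± 1.36 (limma adjusted p = 0.446), with a mean count of 28.5 and 1 of its whole cell Scr samples at 0, and *Zfp867* at −1.01 ± 0.48 (limma adjusted p = 0.508). For *Zfp672*, with its 8-base match, the counts were 553, 504 and 673 in nuclear Scr and 817, 615 and 629 in nuclear *miR-92b* samples. They were 315, 399 and 542 in whole cell Scr and 378, 381 and 151 in whole cell *miR-92b* samples. The log2 difference was 0.25 ± 0.29 for nuclear lysates and −0.55 ± 0.29 for whole cell lysates, and neither was called (limma adjusted p = 0.541 for the latter).

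The genes that act with KRAB zinc finger proteins were read from a list of 16 symbols, of which 16 of 17 loci were tested. In the mean of the treatments 1 was called higher in nuclear samples, 7 lower and 8 were not called, with a median of −0.28. Of all tested loci 15.3% were called higher and 15.8% lower. On the list 15 of the 17 loci had a mean of at least 100, and calls over all loci were more frequent at higher counts. The list was not set against loci of like level. Trim28, the co-repressor that binds the KRAB domain, had a median count of 935 in nuclear (615 to 1088) and 1679 in whole cell samples (1252 to 2333). The groups did not overlap, and the log2 difference was −0.90 ± 0.13 (limma adjusted p = 1.09e-05).

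*Setdb1*, the methyltransferase that follows Trim28, was not called, with medians of 929 in nuclear and 769 in whole cell samples and a log2 difference of 0.06 ± 0.15 (limma adjusted p = 0.790). *Cbx1* and *Cbx3* of the heterochromatin protein 1 family were called lower, at −0.65 and −0.73, while *Cbx5* of the same family was at −0.01 and not called. Of the HUSH complex, *Fam208a* (Tasor) was called higher at 0.58, *Pphln1* was called lower at −1.43, and *Mphosph8* was at 0.01 and not called. *Chd4*, *Hdac1* and *Hdac2*, subunits of the NuRD complex, were called lower at −0.32, −1.10 and −0.59.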

How the data were processed

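RNA from 18 samples (6 groups of 3) was analysed. According to the submitters' processing notes and the study's methods, reads were demultiplexed with bcl2fastq 2.17, trimmed with Trimmomatic 0.30, aligned to GRCm38 (mm10) with TopHat2 and assembled and compared with Cufflinks and Cuffdiff. The deposited normalized counts are a signal, reads divided by 1 size factor per sample. The authors also deposited FPKM per sample, corrected for transcript length. The authors' comparison tables (FPKM, log2 fold changes, p-values and q-values) were not used.

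Of values above 0, 99.95% (634906 of 635205) were whole reads within 0.02 reads, so reads were recovered for edgeR 4.0.16 and DESeq2 1.42.0. On these, edgeR called 4392 and DESeq2 5087 of the 15579 tested loci in the mean of the treatments, against 4831 by limma. DESeq2 gave no adjusted p for 18 loci. The 115957 loci without a symbol (4.51% to 15.3% of the reads) were left out. Every column of per-sample values was mapped to its sample.

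Loci with a mean of at least 10 were tested 2-sided with limma 3.58.1 (R 4.3.3), using a mean-variance trend and log2(normalized count + 1). Because the values were normalized and not raw counts, limma was used as main test. It was tested on simulated data: of 200 loci with a log2 fold change of 2 among 15579, 85 were recovered in control (42.5%) with 5 false calls, and 131 in the mean of the treatments (65.5%) with 11.

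Alternatives were a pseudocount of 8, means of at least 1 or 50, samples set to the same median, FPKM with a pseudocount of 0.1, a model of the compared groups alone, the sample number as a block, edgeR, DESeq2, loci with 1 symbol, and each sample left out. Same-numbered samples showed little shared deviation (45 pairs, r from −0.044 to 0.109), and the main model held no pairing. This r was taken over all tested loci, many with few reads, so a low value cannot show that the samples were unpaired.

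The rule for members reads symbols alone, but the range of symbols and the lists were chosen with earlier results of these data known. Loci were named by rule: the 6 highest by mean FPKM, up to 8 called higher and 8 called lower with the same sign in each treatment, up to 5 called per comparison of treatments (none), 9 members with known roles, and Trim28 and *Setdb1*. KRAB boxes and fingers (C-x2-4-C-x12-H-x3-5-H) were searched in translations of GENCODE M21, in which all 184 symbols were found. A joined locus took the highest finger number of its members. Some genes of the marker lists are not reported here.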

Additional observations from a re-analysis of the deposited data

How the results depend on the processing

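In the mean of the treatments, the number of members called stayed between 27 (FPKM) and 48 (samples set to the same median) under the other settings, and between 35 and 47 with a sample left out. edgeR called 36 members higher and 3 lower, of which 38 were calls of limma, and DESeq2 called 40 and 3. On FPKM 23 were called higher and 4 lower, and 21 of the 39 calls of limma on counts were kept. Calls over all tested loci also differed between limma, edgeR and DESeq2. Counts under a setting therefore describe the stability of the calls, and not the members against all loci. Another 2 settings were chosen after seeing the data: without nuclear Scr samples 2 and 3, 32 were called higher and 3 lower, and in control and *miR-92b* samples alone, without whole cell *miR-92b* sample 3, 40 and 4.

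The counts within single treatments were less stable. They were not set against all loci here, and the cause was not tested. On FPKM 2 members were called in control, 2 in Scr and 4 in *miR-92b* samples. In a model of the compared groups alone 28 were called in control and 1 in *miR-92b* samples. DESeq2 called 9 in Scr, and without nuclear Scr samples 2 and 3 the count there was 0. With a sample left out, the calls ranged from 4 to 24 in control, from 1 to 11 in Scr and from 10 to 30 in *miR-92b* samples, and from 0 to 1 in the difference between treatments and in nuclear *miR-92b* against Scr. In control, 10 were called without nuclear control sample 2 or whole cell control sample 1, and 4 without nuclear control sample 3 or whole cell control sample 2. In Scr, 2 were called without nuclear Scr sample 3, 1 without whole cell Scr sample 3 and 11 without whole cell *miR-92b* sample 3, which enters there only through the shared spread. In *miR-92b* samples, 10 were called without nuclear sample 1 or 3, 12 without nuclear sample 2 or whole cell sample 3, and 30 without whole cell sample 1. Whole cell *miR-92b* against Scr gave 0 calls of members in every setting run.

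Signs turned at named loci that were not called: *Zfp830* (0.052 with the same median, 0.040 by edgeR, 0.036 by DESeq2, −0.16 to 0.17 with a sample left out), *Setdb1* (−0.027 to 0.14 with a sample left out), and on FPKM *Zfp746* (−0.084) and *Zfp809* (0.30). With the sample number as a replicate block, 16, 5, 19 and 39 members were called in control, Scr, *miR-92b* and the mean of the treatments. Same-numbered samples correlated with a median r of 0.002, with 1 of 45 pairs over 0.1. Of the 50 tested members with the fewest reads, 2 were called higher (4.0%) and none lower, against 7.16% and 4.55% of all loci in that range of counts, and the part of depth in this was not tested.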
